A study of Mus musculus with 4 samples.

Results

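The constitutive proteasome subunits were taken as all genes whose symbol starts with Psma, Psmb, Psmc or Psmd followed by a digit, without the interferon-induced Psmb8, Psmb9 and Psmb10 and without pseudogenes. The rule gave 37 of the 32285 genes counted. Of these, 8 are Psma genes, 8 are Psmb genes, 6 are Psmc ATPases, 14 are Psmd genes and 1, Psmc3ip, is a recombination factor of meiosis that shares only the first letters of its symbol. Expression was followed along a ranking of tissue spots by the share of their transcripts from 4 genes of stressed heart muscle, Ankrd1, Flnc, Xirp2 and Nppb. No subunit entered that ranking.

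The data come from Visium, which captures mRNA on an array of barcoded spots, each of which lies under several cells of different types. Hearts of 4 adult ICR mice were sectioned after myocardial infarction, 1 mouse and 1 section for each of day 1, day 4, day 7 and day 14. The days are those of the sample labels, and for the first section the study's own text names a different day in one place. All 4 mice were of the same outbred stock at 12 weeks, with no engineered allele named in the labels, and had the left anterior descending coronary artery tied permanently. No section of an uninjured or sham-operated heart was analysed here, and with 1 mouse per day, the day and the mouse cannot be told apart. After spots with over 1% of UMIs (unique molecular identifiers, counted once per captured transcript) in hemoglobin genes were left out, 7503 of 9102 spots remained, with 9292678 to 15713779 UMIs per section and a median of 5188 to 8799 UMIs per spot. The cardiomyocyte markers Myh6, Tnnt2, Actc1, Myl2 and Tnni3 were detected in every bin of every section, so the label of heart was borne out. Any 2 sections shared 1572 to 1918 spot barcodes, which are positions of the array design and not shared cells.

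The proteasome is the barrel-shaped protease that degrades proteins marked with ubiquitin. Its 20S core is built of alpha rings, which form the gate, and beta rings, of which the Psmb6, Psmb7 and Psmb5 products carry the caspase-like, trypsin-like and chymotrypsin-like sites. The 19S cap holds an ATPase ring (Psmc1 to Psmc6) that unfolds the substrate and non-ATPase subunits that bind ubiquitin and remove it. When proteasome activity falls short, the transcription factor encoded by Nfe2l1 is known to raise the subunit genes together through antioxidant response elements in their promoters, and in heart muscle the proteasome turns over sarcomere proteins.

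Promoter sequences of 4 subunit genes are shown because the genes differ in their day 1 response, described below, and in whether they hold the element. Psma5 and Psmd11 had the largest day 1 ratios and were chosen for them after their values were seen, and Psmb5 and Psmb6 encode catalytic subunits. Each sequence is the last 150 bases before the RefSeq start of the gene on GRCm38.p6, read 5′ to 3′ along the gene, at chr14:54617996-54618145 on the minus strand for Psmb5 and, on the plus strand, at chr11:70525207-70525356 for Psmb6, chr3:108256776-108256925 for Psma5 and chr11:80428465-80428614 for Psmd11. Capitals mark matches to the core of the antioxidant response element.
Psmb5: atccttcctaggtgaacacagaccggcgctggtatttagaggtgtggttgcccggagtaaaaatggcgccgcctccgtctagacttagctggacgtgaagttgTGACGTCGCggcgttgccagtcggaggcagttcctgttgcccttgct
Psmb6: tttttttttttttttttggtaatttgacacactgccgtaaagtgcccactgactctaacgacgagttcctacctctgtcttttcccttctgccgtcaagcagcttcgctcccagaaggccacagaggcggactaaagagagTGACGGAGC
Psma5: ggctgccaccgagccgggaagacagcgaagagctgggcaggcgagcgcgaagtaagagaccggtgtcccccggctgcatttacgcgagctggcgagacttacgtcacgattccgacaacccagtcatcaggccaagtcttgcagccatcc
Psmd11: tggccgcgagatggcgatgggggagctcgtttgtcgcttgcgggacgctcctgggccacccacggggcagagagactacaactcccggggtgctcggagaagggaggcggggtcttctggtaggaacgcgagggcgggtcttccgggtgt
The core, TGACNNNGC on either strand, began 47 bases before the start in Psmb5 and 9 bases before it in Psmb6, and no match lay in the Psma5 and Psmd11 sequences. RefSeq promoters (250 bases before to 50 after the start) were matched for 30 of the 37 genes, and 5 of them held the core (16.7%), namely Psmb5, Psmb6, Psmc6, Psmd12 and Psmd9, against 14.0% of all 27025 genes with a promoter. The NF-Y box CCAAT, again on either strand, was in 13 of the 30 (43.3%) and in 41.1% of all genes. The letters of both motifs were thus about as frequent in the subunit promoters as elsewhere, with no test made.

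Transcripts of the 37 genes formed a larger share of all transcripts in the top than in the bottom of 4 bins of spots by stress share. This held in every section, by the widest margin on day 1, where the stress contrast between the bins was also widest. On days 4 and 7 the difference was within counting error under some alternatives given at the end. Within each section the spots were ordered by their stress share and cut into 4 bins of 419 to 522 spots, from the bottom bin of lowest to the top bin of highest share. The bins are thus ranks within a section, and their stress contrast differed by day. The summed ranking genes were 30.9, 12.7, 8.82 and 7.98-fold higher in the top than in the bottom bin on days 1, 4, 7 and 14. Subunit ratios of different days therefore rest on unlike contrasts. Levels are counts per 1000000 UMIs of a bin (CPM). On day 1 the summed share was 3069 CPM in the bottom bin, 3162 in the second, 3923 in the third and 5223 in the top bin. On day 4 the same bins held 3223, 2888, 3021 and 3500, and on day 7 they held 3259, 3045, 3127 and 3472. On day 14 the shares were 2731, 2676, 2788 and 3001. The top bin was thus the highest of its section on all 4 days, but the bottom bin was the lowest only on day 1. The ratio of top to bottom was 1.70-fold on day 1 (95% interval 1.66 to 1.75). It was 1.09-fold (1.06 to 1.11), 1.07-fold (1.03 to 1.10) and 1.10-fold (1.07 to 1.13) on days 4, 7 and 14. These intervals cover counting error only, since UMIs of 1 section do not replicate the mouse, and no test between days was possible. In spots that mix cells, more transcript per cell and more cells of a type that is rich in it cannot be told apart.

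In 10 finer bins, the day 1 share stayed between 3052 and 3195 CPM over the first 5, then went to 3378, 4031, 4902, 5008 and 5503 over the last 5. The step lay between fine bins 5 and 8, over which the median stress share of a spot went from 11.9 to 96.0 per 10000 UMIs. On the other 3 days the curve was shallow and bent upward at both ends. On day 4 it was 3690 in fine bin 1, lowest at 2794 in bin 4 and 3618 in bin 10. Day 7 had 3600, 2991 (in bin 5) and 3565, and day 14 had 3076, 2643 (in bin 4) and 3195. On days 4 and 7 fine bin 1 thus lay above bin 10, with overlapping intervals. Spots without a UMI of the ranking genes numbered 31, 51, 96 and 213 on days 1, 4, 7 and 14, and such ties were ordered by barcode. The median stress share of fine bin 1 was 0 on days 7 and 14. On day 14 that bin held 330286 UMIs, against 1780776 in fine bin 2. Across single spots the Spearman correlation of subunit share with stress share was 0.63 on day 1 (1864 spots) and 0.09, 0.09 and 0.13 on days 4, 7 and 14 (1667, 1787 and 1931 spots). The 2 shares come from the same library of each spot and have its UMI total in common, so the correlation is a description.

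**Figure D1:**
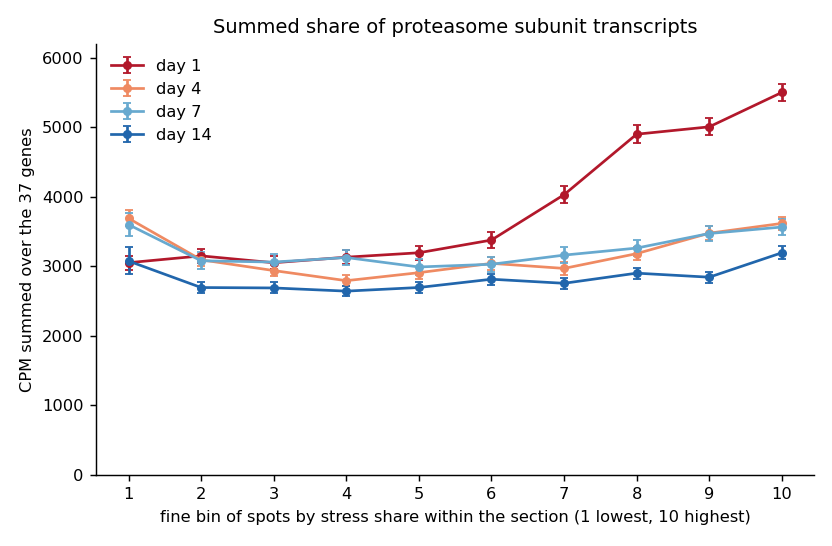
Summed CPM of the 37 genes (vertical axis, from 0) against 10 fine bins of spots by stress share in each section (horizontal axis), 1 line per day, with bars for exact Poisson 95% intervals. The day 1 line leaves the others after fine bin 5 and reaches 5503 in bin 10, while days 4, 7 and 14 end at 3618, 3565 and 3195.

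Each part of the particle took part on day 1, in unequal measure. The alpha genes of the core went from 707 to 1283 CPM between the bottom and the top bin (1.82-fold, interval 1.72 to 1.91), and the beta genes from 1078 to 1609 (1.49-fold, 1.43 to 1.56). The ATPases went from 536 to 950 (1.77-fold, 1.67 to 1.88), and the Psmd genes from 744 to 1376 (1.85-fold, 1.76 to 1.95). The interval of the beta genes lay below those of the other 3 groups. On days 4, 7 and 14 the ratios of the 4 groups ran from 0.996-fold (beta genes, day 7) to 1.14-fold (ATPases on day 4 and Psmd genes on day 14), and the interval of the beta genes overlapped those of the other groups.

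Of the 31 genes with at least 1000 UMIs over all sections, each had a day 1 interval above equality. Intervals were counted for these 31 only, so no share of all genes stands beside this count or those of later days. The log2 ratios of CPM of the 31, top over bottom bin, ran from 0.35 to 1.42 with a median of 0.81. The median of all 4765 genes was 0.36. On this scale 25 of the 31 (80.6%) were at least 1.5-fold higher, beside 38.9% of all genes. On the scale of trimmed mean of M-values (TMM) factors, which sets the bulk of genes near 0 (their day 1 median was 0.04), all 31 still lay above 0 with a median of 0.49, and 10 of them (32.3%) were at least 1.5-fold higher beside 25.4% of all genes. So the day 1 direction held on both scales, whereas the number past 1.5-fold depended on the scale. On the later days none of the 31 reached 1.5-fold, beside 8.88%, 8.27% and 2.37% of all genes on days 4, 7 and 14. The interval lay above equality for 6, 2 and 9 of them on those days and below it for none, and their medians were 0.11, 0.11 and 0.15 against 0.09, -0.01 and 0.02 for all genes. On the TMM scale the later medians were -0.03, 0.10 and 0.13, with 13, 23 and 25 of the 31 above 0, so the day 4 median changed sign with the scale.

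**Figure D2:**
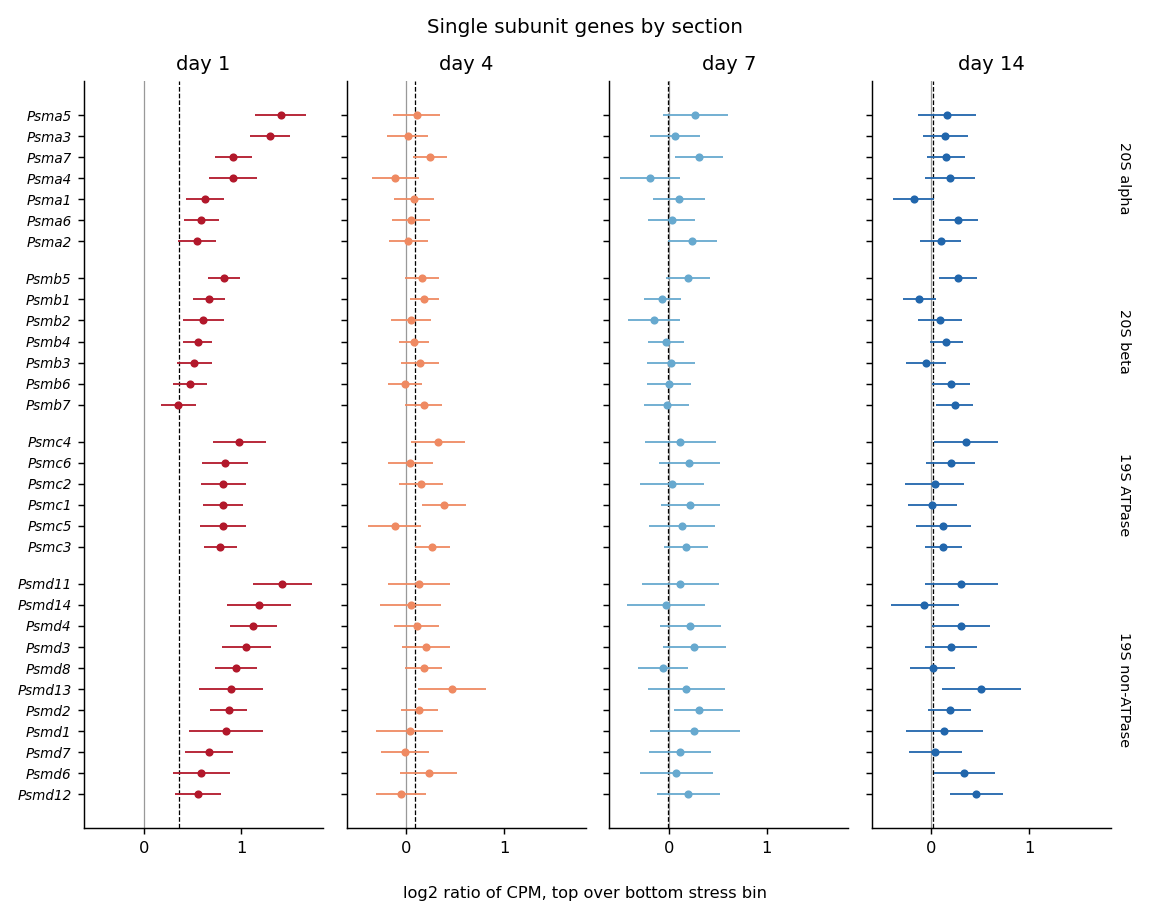
Log2 ratio of CPM in the top over the bottom stress bin (horizontal axis) for the 31 genes with enough UMIs (vertical axis, grouped by position in the particle), 1 panel per day, with exact 95% counting intervals, a grey line at 0 and a dashed line at the median of all genes. On day 1 all 31 points lie above 0, from Psmb7 at 0.35 to Psmd11 at 1.42. Above the dashed line lie 17, 24 and 25 of the 31 on days 4, 7 and 14.

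The catalytic subunits did not move alike on day 1. Psmb5 (chymotrypsin-like) had 151, 178, 194 and 266 CPM from the bottom to the top bin of day 1, against 122 to 172 over the 12 bins of the other days. Its log2 ratio was 0.82 (interval 0.65 to 0.99) on day 1 and 0.16, 0.20 and 0.27 on days 4, 7 and 14. Psmb6 (caspase-like) had 156, 163, 190 and 217 on day 1, a log2 ratio of 0.47 (0.30 to 0.64), and stayed between 122 and 159 later. Psmb7 (trypsin-like) had 150, 150, 148 and 191, so only its top bin stood out, and its log2 ratio of 0.35 (0.18 to 0.53) was the smallest of the 31 and about that of the median gene. The intervals of Psmb5 and Psmb7 did not overlap, so within this 1 section the 2 genes differed by more than counting error. Among the core genes outside the named catalytic ones, the largest ratios were those of the alpha genes Psma5 and Psma3, which are described because of their values. Psma5 went through 55.7, 59.9, 93.4 and 147 CPM on day 1 and lay between 54.9 and 84.2 on the other days, with log2 ratios of 1.40, 0.11, 0.27 and 0.16 on days 1, 4, 7 and 14. Psma3 had a day 1 log2 ratio of 1.29 (1.09 to 1.49) and 0.01, 0.06 and 0.14 later.

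The 6 ATPases of the cap, which sit in 1 ring at equal number, had close day 1 ratios. Their log2 values were 0.81 for Psmc1, 0.81 for Psmc2, 0.78 for Psmc3, 0.98 for Psmc4, 0.81 for Psmc5 and 0.83 for Psmc6, and all intervals overlapped. On day 4 they spread from -0.12 for Psmc5 (interval -0.39 to 0.15) to 0.38 for Psmc1 (0.16 to 0.61), on day 7 from 0.03 for Psmc2 to 0.22 for Psmc1, and on day 14 from 0.01 for Psmc1 to 0.35 for Psmc4 (0.03 to 0.68). The intervals of neighbours in this order overlapped on every day, but on day 4 those of Psmc5 and Psmc1 did not overlap.

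The widest range was among the Psmd genes. Psmd11, a lid subunit picked for its value, went from 41.6 CPM in the bottom bin through 44.7 and 61.5 to 111 in the top bin of day 1, and lay between 31.1 and 55.2 in the other sections. Its day 1 log2 ratio of 1.42 (1.12 to 1.72) was the largest of the 31. Psmd14, whose product is the deubiquitinase of the cap, had 37.6, 36.4, 60.5 and 85.0 on day 1 (log2 ratio 1.18, 0.85 to 1.51) and log2 ratios of 0.05, -0.03 and -0.07 afterwards. Psmd4, a ubiquitin receptor, had 70.1, 84.4, 98.5 and 153 on day 1 (1.12, 0.89 to 1.36) and log2 ratios of 0.11, 0.22 and 0.30 afterwards. The scaffold genes Psmd1 and Psmd2 had day 1 log2 ratios of 0.84 (0.47 to 1.22) and 0.87 (0.68 to 1.06). Psmd2 remained at 0.14, 0.31 and 0.19 and Psmd1 at 0.04, 0.26 and 0.13 on days 4, 7 and 14.

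The other 6 of the 37 genes had too few UMIs for the test across sections. The thymus-specific Psmb11 had 1 UMI in all sections, and the testis form Psma8 had 31. Psmc3ip had 371 UMIs and a day 1 log2 ratio of 0.10 (-1.03 to 1.24). The chaperones of cap assembly Psmd10, Psmd9 and Psmd5, which leave before the particle is complete, had 595, 687 and 734 UMIs. Their day 1 log2 ratios were 0.35 (-0.30 to 1.01), 0.55 (-0.03 to 1.15) and 0.48 (-0.10 to 1.07), below the median of the 31 but with intervals that reach it. Psmd9 had a log2 ratio of -0.75 on day 7 (-1.48 to -0.02), with 20.3 CPM in the bottom and 12.1 in the top bin.

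Whether the subunits differed between stressed and other spots in a way shared by the 4 sections was tested with edgeR's quasi-likelihood test on UMIs summed per section and bin, with the section as a block. None of the 31 tested genes was called at an adjusted p under 0.05 in either direction, beside 1.01% of all genes called higher and 0.294% called lower in the top against the bottom bin. All 31 log2 fold changes were positive, from 0.04 to 0.39 with a median of 0.17, where 47.2% of all genes were positive. At an unadjusted p under 0.05 there were 8 of the 31, all higher, beside 6.84% of all genes higher at that level. DESeq2 also called 0. The smallest adjusted p was that of Psmd13, a lid subunit (log2 fold change 0.39, SE 0.12, adjusted p = 0.151 by edgeR), higher in 4 of 4 sections. The catalytic genes had log2 fold changes of 0.24 for Psmb5 (SE 0.10, edgeR adjusted p = 0.317), 0.04 for Psmb6 (SE 0.09) and 0.06 for Psmb7 (SE 0.11). The ATPases lay between 0.12 for Psmc5 and 0.33 for Psmc4 (SE 0.12, edgeR adjusted p = 0.258). Psmd1 had 0.20, Psmd2 0.25, Psmd4 0.32 and Psmd14 0.17. In the third bin against the bottom one 0 of the 31 were called (0.021% of all genes, in either direction), and in the second bin 0 were called too (0.0% of all genes). The test sets a difference against the unevenness of bin differences over 4 sections of different days, estimated from all 4 bins together. The day 1 section weighed on the result. Without day 1, 22 of the 31 log2 fold changes were positive with a median of 0.07, beside 42.1% of all genes positive. Without the collagen-rich spots as well, 15 of the 31 were positive with a median near 0, beside 51.5% of all genes.

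Collagen-rich spots lay at both ends of the stress ranking, in proportions that differed by day. Each section was also cut into 4 bins by collagen share (Col1a1, Col1a2 and Col3a1). Collagen-rich thus means rich for the section. The median collagen share in the top collagen bin was 22.7 per 10000 UMIs on day 1. It was 336, 406 and 150 on days 4, 7 and 14, so the day 1 bin held far less collagen transcript. Of the spots in the top collagen bin of a section, 31, 165, 245 and 210 were in the bottom stress bin on days 1, 4, 7 and 14. In the top stress bin were 203, 130, 116 and 193 of them. Without the top collagen bin of each section, and with the rest ranked again, the summed share went from 3091 to 5008 CPM on day 1. It went from 2667 to 3270, from 2973 to 3416 and from 2665 to 2908 on days 4, 7 and 14. The ratios became 1.62, 1.23, 1.15 and 1.09-fold. In this alternative edgeR called 3 of the 31 genes higher (9.68%) and 0 lower, beside 16.8% of all 3717 genes tested higher and 17.9% lower. They were the ATPase Psmc4 (log2 fold change 0.40, SE 0.14, edgeR adjusted p = 0.0454), the lid subunit Psmd8 (0.35, SE 0.10, edgeR adjusted p = 0.0186) and Psmd13 (0.38, SE 0.11, edgeR adjusted p = 0.0178), and each was higher in 4 of 4 sections in CPM. Without the day 1 section, and likewise without the day 4 section, none of the 31 was called. Scaled to total UMIs instead of by TMM factors, 20 of the 31 were called higher (64.5%) and 0 lower, beside 37.4% and 8.58% of all genes. The median of all genes moved from 0.02 to 0.22 between these scales, and that of the subunits from 0.16 to 0.36, so both moved by a similar amount.

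**Figure D3:**
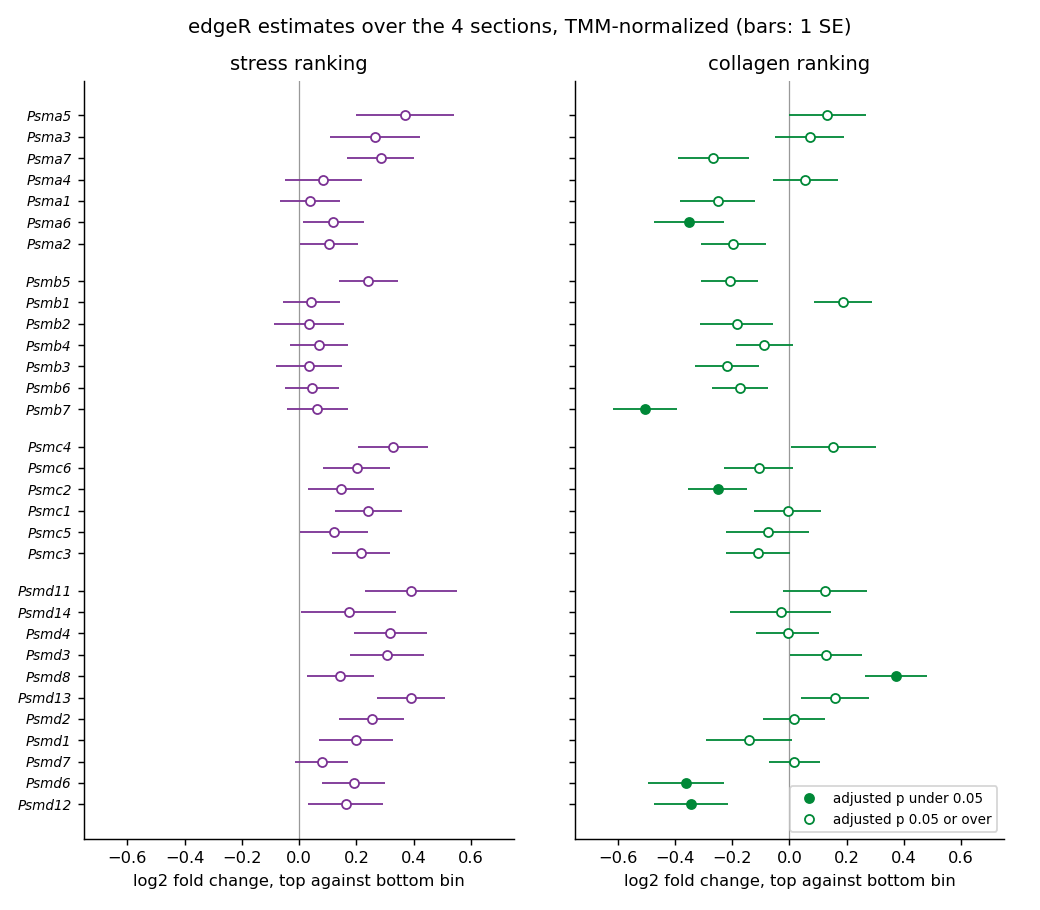
Log2 fold change with its SE from edgeR for the 31 genes (vertical axis, same order as in the plot by day), top against bottom bin by stress share (left) and by collagen share (right), TMM-normalized over 4 sections, with filled points for an adjusted p under 0.05. All points on the left lie above 0 and are open, and on the right 5 filled points lie below 0 and 1, Psmd8, above it.

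Ranking the same spots by collagen share gave a different picture, which depended on the scale. The summed share went from 3179 to 4734 CPM between the bottom and the top collagen bin on day 1 (1.49-fold, interval 1.45 to 1.53) and from 2677 to 4377 on day 4 (1.63-fold, 1.59 to 1.68). Later it went from 3003 to 3756 (day 7, 1.25-fold, 1.21 to 1.295) and from 2682 to 3231 (day 14, 1.20-fold, 1.17 to 1.24). With TMM factors, which ranged from 0.80 to 1.41 over these libraries, edgeR called 1 of the 31 genes higher and 5 lower, beside 36.1% and 34.5% of all genes, with a median log2 fold change of -0.09. With total UMIs it called 27 higher and 0 lower, beside 62.4% and 17.0% of all genes, with a median of 0.48 where all genes had 0.59. By day, the subunits lay above the median gene on day 1 (median log2 ratio of CPM 0.63 against 0.41, and 0.25 against 0.03 on the TMM scale) and below it on both scales on days 4, 7 and 14. In CPM their medians on those days were 0.68, 0.27 and 0.27 against 0.84, 0.62 and 0.45 for all genes. Psmd8 was higher on both scales, with 94.3 and 152 CPM in the bottom and top collagen bin of day 1, 80.4 and 206 on day 4, then 76.2 and 157 (day 7) and 74.0 and 115 (day 14). Its TMM log2 fold change was 0.37 (SE 0.11, edgeR adjusted p = 0.00797). Psmb7 was nearly level in CPM, at 153 and 164, 130 and 133, 144 and 135, and 143 and 159 over days 1, 4, 7 and 14, which on the TMM scale was a fall (-0.50, SE 0.11, edgeR adjusted p = 0.00135). The other 4 called lower with TMM were Psmc2 (-0.25), Psmd12 (-0.34), Psma6 (-0.35) and Psmd6 (-0.36), of which only Psmc2 was among those called higher with total UMIs.

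Spots were also split at the median of both shares at once, so high and low are ranks within a section. On day 1 the summed share was 3088 CPM where both were low and 3213 where only collagen was high, against 4099 where only stress was high and 4808 where both were. On day 4 the order differed. The share was 2679 where both were low and 2859 where only stress was high, 4486 where only collagen was high and 3482 where both were. On day 7 the same 4 classes (both low, only stress, only collagen, both) held 2922, 3202, 3503 and 3410, and on day 14 they held 2638, 2797, 2832 and 2982. So the highest subunit share lay in spots high for both on day 1 and in collagen-rich spots of low stress share on day 4. Counting intervals of these 2 classes did not overlap within either section.

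The cell types in the bins differed as well. On day 1 the summed cardiomyocyte markers had 46340 CPM in the bottom and 27774 in the top stress bin, with 1 of 5 markers higher. The 5 macrophage markers had 259 and 805, the 4 neutrophil markers 18.1 and 289, the 5 fibroblast markers 1112 and 2179, the 3 endothelial markers 164 and 246 and the 3 smooth muscle markers 64.8 and 209. None of these markers was at 0 in either bin. Of the 5 fibroblast markers, 4 were higher in the top bin. Mitochondrially encoded transcripts took 30.6% of UMIs in the bottom and 20.5% in the top bin of day 1. With them left out of the totals, the day 1 ratio of summed subunit share was 1.49-fold instead of 1.70-fold. On days 4, 7 and 14 the summed macrophage markers were lower in the top bin (0.73, 0.39 and 0.48-fold), although 2 of 5 were higher there on day 4. The summed neutrophil markers were lower too (0.41, 0.21 and 0.18-fold), with 0 of 4 higher on each day. The cardiomyocyte markers were 0.86, 1.76 and 1.03-fold on those days, with 2, 5 and 2 of 5 higher in the top bin. The fibroblast markers were 1.26, 0.47 and 0.60-fold, with 4, 0 and 1 of 5 higher. On day 7 the bottom bin also held 11363 CPM of 9 fast skeletal muscle genes, against 144 in the top bin. The part of these differences in the subunit shares was not tested.

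Other genes of the ubiquitin-proteasome system gave a mixed day 1 picture, and none of those tested in the 14 related lists was called by edgeR in the stress comparison. The interferon-induced subunits, which replace Psmb5, Psmb6 and Psmb7 in the immunoproteasome, had larger day 1 values than any constitutive beta gene, although the interval of Psmb10 overlapped that of Psmb5. Psmb8 went from 12.1 to 64.0 CPM on day 1 (log2 ratio 2.41, interval 1.89 to 2.96), Psmb9 from 5.70 to 18.5 (1.70, 0.90 to 2.57) and Psmb10 from 49.7 to 94.7 (0.93, 0.64 to 1.22). On days 4, 7 and 14 Psmb8 had 0.05, -0.45 (-0.85 to -0.047) and -0.47 (-0.96 to 0.024). Psmb9 had -0.02, 0.09 and 0.17 on those days, and Psmb10 had 0.14, 0.48 (0.12 to 0.85) and 0.24. The negative day 7 value of Psmb8 was thus not shared by Psmb10, and on day 14 the interval of Psmb8 reached equality. Over the 4 sections Psmb8 had a log2 fold change of 0.18 (edgeR adjusted p = 0.861). In the collagen comparison with TMM, Psmb8 (log2 fold change 1.49) and Psmb10 (0.40) were called higher by edgeR, and the direction was the same in all 4 sections in CPM.

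The regulators did not all follow. Of the 4 tested activator genes, Psme2 (part of the interferon-induced cap) and Psme3 (a nuclear cap) had day 1 log2 ratios of 0.93 and 1.00, while Psme1, the partner of Psme2, had -0.49 (-0.66 to -0.32) and Psme4 had -0.60 (-0.89 to -0.32). In the fit, Psme1 had the largest value of its list (-0.42, edgeR adjusted p = 0.136), then Psme4 (-0.22) and Psme3 (0.21). The 3 tested core assembly chaperones, led by Pomp (0.75 on day 1), had a day 1 median of 0.47 and fit values of 0.13 for Pomp, 0.07 for Psmg2 and 0.06 for Psmg4. The 5 tested proteins bound to the cap had a day 1 median of 0.55, with fit values of 0.32 for the ubiquitin receptor Adrm1, 0.17 for Ube3c and 0.16 for Txnl1. The ubiquitin genes and the E1 enzyme had a day 1 median of 0.36, which is the median gene. The intervals of Rps27a, also a ribosomal gene (1.32, 1.23 to 1.41), and of the E1 gene Uba1 (0.67, 0.48 to 0.86) lay above that value. Fit values were 0.13 for Rps27a and 0.06 for Ubb and Uba1. The 7 delivery factors, among them Vcp (0.62), had a median of 0.62 and led in the fit with Nploc4 (0.24), Ubqln2 (-0.16) and Ufd1 (-0.12). Nfe2l1 had a day 1 log2 ratio of 0.31 (0.09 to 0.54) and a fit value of 0.01, and Ddi2, the protease that releases its product, had 0.45 (-0.04 to 0.94) and -0.11. The day 1 ratio of Nfe2l1 transcript was thus near that of the median gene. The factor is known to be controlled at the protein level, which these data do not measure, and its part in the subunit ratios was not tested.

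The muscle ubiquitin ligases, which mark sarcomere proteins, and the aggregate factors had another pattern over the 4 sections. Fbxo32 had a log2 ratio of -0.99 (-1.36 to -0.63) on day 1 and 0.32, 0.16 and 0.09 later, and Trim63 had -0.37 (-0.56 to -0.19), then 0.57, 0.63 and 0.45. Trim54 had 0.21, 0.31, 0.66 and 0.42 on days 1, 4, 7 and 14. Fit values were 0.26 for Trim54, -0.22 for Fbxo32 and 0.17 for Trim63. Sqstm1 had 0.49, 0.41, 0.70 and 0.41 and Bag3, a co-chaperone that clears damaged filamin, had 0.16, 0.24, 0.79 and 0.55, with fit values of 0.37 and 0.28. Trim63, Trim54, Sqstm1 and Bag3 thus had their highest ratio on day 7 and Fbxo32 on day 4, the subunits on day 1. The day 4 interval of Fbxo32 was -0.03 to 0.67. For each of these ligases and aggregate factors, the interval of its highest day overlapped that of day 14. With 1 mouse per day, the day and the mouse cannot be told apart. The summed cardiomyocyte markers were 0.60, 0.86, 1.76 and 1.03-fold in the top over the bottom bin on days 1, 4, 7 and 14. Their part in these patterns was not tested.

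The day 1 values of 5 other multi-subunit complexes were set beside those of the subunits. The CCT chaperonin, which folds actin and tubulin, had a median day 1 log2 ratio of 1.28 over 8 genes, above that of the subunits, from 0.87 for Cct4 to 1.62 for Cct6a. The 78 ribosomal protein genes had a median of 1.19. The eIF3 genes, relatives of the lid, had 0.68 (12 genes), the COP9 signalosome, another relative that regulates cullin-RING ubiquitin ligases, 0.38 (9 genes) and the V-ATPase, which acidifies lysosomes, 0.49 (13 genes). On days 4, 7 and 14 the medians of these 5 lists lay between -0.27 and 0.29. In the fit their leading genes were Cct8 and Cct3 (0.27 each) and Cct5 (0.23), Eif3d (0.28), Eif3h (0.26) and Eif3g (0.22), and Cops2 (0.14), Cops8 (-0.13) and Gps1 (0.13). Those of the ribosome and the V-ATPase were Rpl3 (0.44), Rpl32 (0.28) and Rpl39 (0.28), and Atp6v1a (-0.26), Atp6v0c (-0.16) and Atp6v0d1 (-0.14). The median of 0.81 for the subunits was thus neither the highest nor the lowest among the complexes on day 1.

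**Figure D4:**
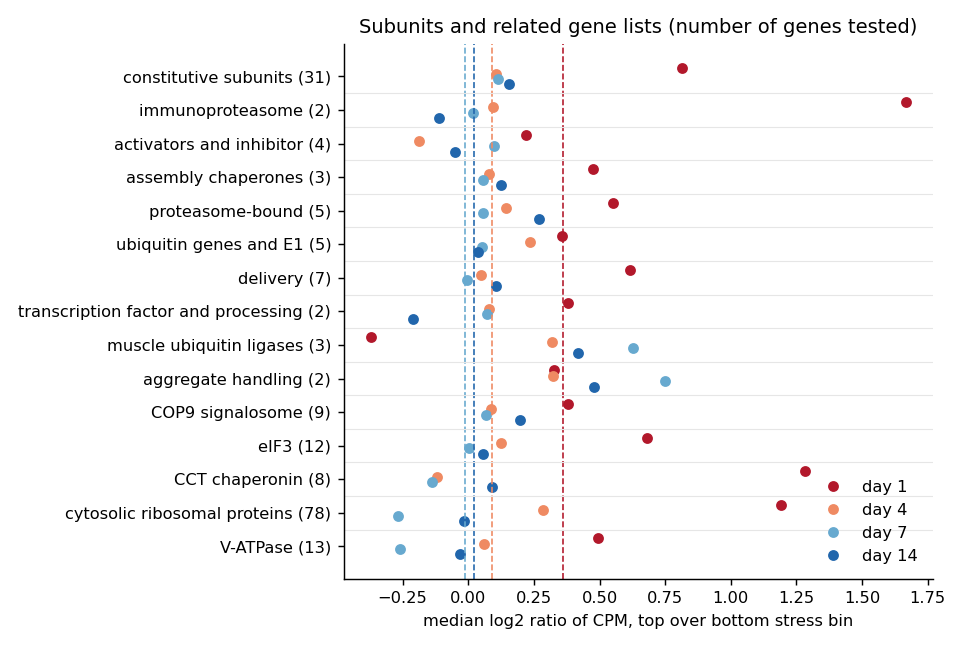
Median log2 ratio of CPM, top over bottom stress bin (horizontal axis), of the constitutive subunits and 14 related gene lists (vertical axis, with the number of genes tested), 1 colour per day and dashed lines at the median of all genes of each day. The day 1 points lie furthest right for the immunoproteasome, CCT chaperonin, ribosomal proteins and constitutive subunits (0.81), and the muscle ligases are lowest on day 1 (-0.37).

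The promoter match described above was also set beside the day 1 ratios. The 4 tested genes with the element core had a median day 1 log2 ratio of 0.69, with single genes from 0.47 to 0.83. The 21 tested genes with a promoter but no match had a median of 0.87, with single genes from 0.52 to 1.42. No test was made on these counts.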

How the data were processed

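The authors aligned section images by hand, ran Space Ranger 1.3.0 on mm10 and deposited UMI counts per gene and spot, unnormalized and limited to spots under tissue. Spots with over 1% of UMIs in 8 hemoglobin genes were left out here, and genes needed at least 1000 UMIs over the remaining spots (4769 kept). Per section, 1679 to 2086 spots were ranked by the summed UMI share of 4 stress genes or 3 collagen genes, neither set being tested, and cut into 4 bins. UMIs were summed per section and bin (16 libraries) and tested with edgeR 4.0.16 in R 4.3.3 (TMM, section as a block, robust quasi-likelihood, 9 residual degrees of freedom), with Benjamini-Hochberg adjustment over 4765 (stress) or 4766 (collagen) genes and calls at 0.05. SEs are the log2 fold change over the square root of F. The code was tested on simulated counts. Values per day are counts per 1000000 UMIs (CPM) with exact Poisson or conditional 95% intervals (scipy 1.17.1), which cover counting error only. Each day is 1 mouse, so the p-values measure how unevenly the differences between bins ran over sections of different days.

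Genes named throughout are the catalytic, ATPase, scaffold, Psmd4, Psmd14 and chaperone genes, members with too few UMIs, and the 3 related genes of largest change per list. The text says where a gene was chosen for its value. The members, lists and tests were chosen with earlier results of these data known. Alternatives were DESeq2 1.42.0, other scaling, filters, rankings and each section left out. Those that combine the collagen-rich filter with another choice were added after seeing the data. Spot positions and images were not used. Gene lengths do not enter, so UMI levels are compared within a gene, and sums over genes weigh abundant ones most. Coordinates are RefSeq's on GRCm38.p6.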

Additional observations from a re-analysis of the deposited data

Results flagged for a closer look

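The day 1 section stood far from the other 3 in the log2 ratio of top over bottom stress bin for the summed subunit share (0.77) and for 7 of the 31 tested subunit genes. These were Psmd11 (1.42), Psma5 (1.40), Psma3 (1.29), Psmd14 (1.18), Psmd3 (1.05), Psmb5 (0.82) and Psmc2 (0.81). In each case the gap between day 1 and the nearest other section, divided by the whole range of the 4, was above Dixon's 95% limit, which chance passes in about 1 in 20 groups of 4. The limit was applied to the subunits only, so no share of all genes past it stands beside the 7. The genes share 1 mouse and 1 section, so the 7 are not independent, and the day and the mouse cannot be told apart. In that section the markers of macrophages, neutrophils and smooth muscle were higher in the top than in the bottom stress bin. The summed cardiomyocyte markers and the mitochondrial share were lower there, as given above. The stress contrast between the bins was also widest in the day 1 section. The part of these differences in the flagged values was not tested.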

How the results depend on the processing

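The bins were compared within sections by the section block of the fit. The bins of a section were thus matched with each other. The days could not be paired, because each has a single section of a different mouse. For the top against the bottom stress bin, the count of subunits called stayed at 0 in either direction under each alternative except those without the top collagen bin, which gave 3 higher with TMM, 20 with total UMIs and 2 with DESeq2. With a section left out as well, the count was 0 to 3 (0 without day 1, 0 without day 4, 2 without day 7 and 3 without day 14). The counts for the other bins stayed at 0 under every alternative run. The median log2 fold change of 0.17 was 0.07 without day 1, 0.24 without day 4 and, without collagen-rich spots and day 1, -4.2e-05. In the collagen comparison, 1 subunit was called higher and 5 lower with TMM. Called higher were 27 with total UMIs, 6 with mitochondrial genes left out of the totals, 2 with DESeq2 and 0 with genes of at least 10 UMIs or with only the 2 compared bins fitted. Called lower were 0, 1, 7, 13 and 0 in the same order, and 3 without spots under 1000 UMIs, 1 when ranked within depth bins and 2 without the section block. With each section left out, 0 to 1 were called higher (0 without day 7) and 1 to 10 lower (10 without day 1, 1 without each of the others). The median of -0.09 became 0.48 with total UMIs, 0.11 with mitochondrial genes left out of the totals, 0.01 ranked within depth bins and -0.23 to 0.0055 with each section left out. In the related lists 0 genes were called in the stress comparison. Called higher were 1 with total UMIs, 1 with DESeq2, 5 without collagen-rich spots, and in that set 31 with total UMIs and 4 with DESeq2. Called lower were 1 with DESeq2, 1 ranked within depth bins, 2 without collagen-rich spots, and in that set 1 with total UMIs and 2 with DESeq2. With a section left out, 0 to 1 were called higher over all spots and 0 to 5 higher and 0 to 2 lower without collagen-rich spots. In the collagen comparison, 36.1% of all genes were called higher and 34.5% lower with TMM, and 62.4% and 17.0% with total UMIs. For the stress comparison, shares are given above with TMM and, without collagen-rich spots, also with total UMIs. No such share stands beside the remaining counts, so they describe the processing and are no result about these genes.

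The summed ratio of 1.70-fold on day 1 was 1.62 without collagen-rich spots, 1.66 ranked without Ankrd1 and 1.49 without mitochondrial genes. The 1.09-fold of day 4 became 1.23, 1.14 and 1.01 in that order. The 1.07-fold of day 7 was 1.15 without collagen-rich spots, 1.03 with z-scores and 1.11 ranked within depth bins, and the 1.10-fold of day 14 was 1.06 without Ankrd1 and 1.05 with z-scores. The counting interval reached equality on day 4 without mitochondrial genes (0.985 to 1.04). It did so on day 7 with z-scores (0.992 to 1.06) and without Ankrd1 (1.03-fold, 0.9997 to 1.07). Of 312 fit values of 13 named subunits, 284 kept direction and side of the threshold, 12 (of 9 genes, all without collagen-rich spots) passed it and 16 changed sign. The latter were, in log2, Psmb6 (-0.015 ranked within depth bins) and Psmb7 (-0.055 without collagen-rich spots, -0.050 with DESeq2 there, -0.021 ranked within depth bins), and Psmc5 (-0.016) and Psmd14 (-0.078, up to 0.29 without day 14) without day 1. With a section and the collagen-rich spots left out, Psmb6 reached -0.051 (without day 1) and -0.037 (without day 14), Psmb7 lay at -0.074, -0.032, -0.013 and -0.089 without days 1, 4, 7 and 14, and Psmc5 (-0.0059), Psmd1 (-0.053), Psmd4 (-0.0019) and Psmd14 (-0.053) were below 0 without day 1. The cause was not tested. Depth limits Psmb11, Psma8, Psmc3ip, Psmd5, Psmd9 and Psmd10, of which the minimum of 1000 UMIs kept none.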
